A study of Mus musculus with 12 samples.

Results

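The genes described here are 7 mouse genes known for their induction by interferon, *Tgtp1*, *Tgtp2*, *Igtp*, *Irgm1*, *Irgm2*, *Gbp2* and *Irf1*, followed through the exit of embryonic stem cells (ESCs) from the naive state. They form a list of interferon-inducible GTPases with one transcription factor that regulates such genes. *Tgtp1* was picked for its lower level in CIDEA knockout (KO) cells, and *Tgtp2* was added because it could share reads with *Tgtp1*, so both were chosen on the genotype difference, which is given for them as a description with no test. All 7 were found among the 35580 genes of the tables. Of these, 6 passed the filter on low counts and were among the 17424 genes tested, while *Tgtp2* did not pass it.

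RNA was sequenced from R1 mouse ESCs of 2 genotypes, wild-type (WT, the parental line) and CIDEA KO, in which *Cidea*, a gene for a lipid droplet protein, carries a homozygous CRISPR-Cas9 deletion. Both were sampled as ESCs in serum with LIF (0 h) and as 3D spheroids in growth factor-reduced Matrigel and serum without LIF (24 h and 48 h), with 2 libraries in each of the 6 groups and 12 in all. The labels name no treatment with interferon in any group. All KO libraries came from 1 clone, so the loss of *Cidea* cannot be told apart from other differences between this clone and its parent. In these bulk samples, fewer cells expressing a gene and less RNA per cell cannot be told apart either.

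Interferons bind receptors at the cell surface, and the receptor-bound kinases JAK1, JAK2 and TYK2 start a signal that reaches the nucleus. Type II interferon acts mainly through the GAS element in promoters, and type I interferon, with IRF9, through the ISRE element. IRF1 is itself induced by interferon and is a transcription factor that binds ISRE-like sites. The immunity-related GTPases (*Tgtp1*, *Tgtp2*, *Igtp*, *Irgm1*, *Irgm2*) and guanylate-binding proteins (*Gbp2*) are known for the defence of cells against intracellular pathogens, and pluripotent cells are known for a weak response to interferon.

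The promoters of the 7 genes were read from RefSeq on GRCm38.p6, as windows from 250 bases before to 50 bases after each annotated start. The table held 8 such promoters, with 2 for *Irf1*. They were searched on both strands for a GAS-like motif, TTCNNNGAA, and for an ISRE-like motif, GAAANNGAA. The 60 bases around the matches are shown 5′ to 3′ on the strand of the gene to let a reader see where the motifs of these genes lie beside each other, and the capitals mark the matches.

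*Tgtp1*, chr11:48992295-48992354, minus strand: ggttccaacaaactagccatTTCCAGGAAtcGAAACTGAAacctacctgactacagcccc

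*Tgtp2*, chr11:49064254-49064313, minus strand: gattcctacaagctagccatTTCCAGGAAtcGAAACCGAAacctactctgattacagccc

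*Igtp*, chr11:58199491-58199550, plus strand: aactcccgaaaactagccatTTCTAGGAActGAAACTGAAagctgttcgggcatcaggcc

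*Irgm2*, chr11:58214882-58214941, plus strand: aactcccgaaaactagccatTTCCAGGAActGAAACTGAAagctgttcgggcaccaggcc

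*Irgm1*, chr11:48871414-48871473, minus strand: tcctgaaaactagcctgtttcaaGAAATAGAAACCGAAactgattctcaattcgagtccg

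*Gbp2*, chr3:142620579-142620638, plus strand: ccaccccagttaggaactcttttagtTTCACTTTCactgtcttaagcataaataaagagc

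*Irf1*, chr11:53769898-53769957, plus strand: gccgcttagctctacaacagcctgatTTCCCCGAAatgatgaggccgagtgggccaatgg

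In *Tgtp1*, *Tgtp2*, *Igtp* and *Irgm2* the GAS-like match was followed by the ISRE-like match after 2 bases. The GAS-like match began at positions -88, -81, -45 and -75 from the RefSeq start of each promoter shown. For *Tgtp1* and *Irgm2* that start lies inside the wider gene bounds given below, which come from GENCODE. An *Irgm2* transcript begins at 58199618, before the promoter shown. At 48 h it held 151.1 and 249.5 counts in WT and 225.4 and 3.58 in KO libraries. The windows of *Igtp* and *Irgm2* had 58 of 60 bases in common, and those of *Tgtp1* and *Tgtp2* 46 of 60. *Irgm1* held 2 ISRE-like matches that overlapped each other, and *Gbp2* held 1 on the opposite strand. The first promoter of *Irf1* held a GAS-like match alone, and the second held neither motif. Among all 32851 promoters of the table, 8.56% held the ISRE-like motif, 8.30% the GAS-like motif and 1.07% both. A match describes letters in a window and is not evidence of a bound site.

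**Figure D1:**
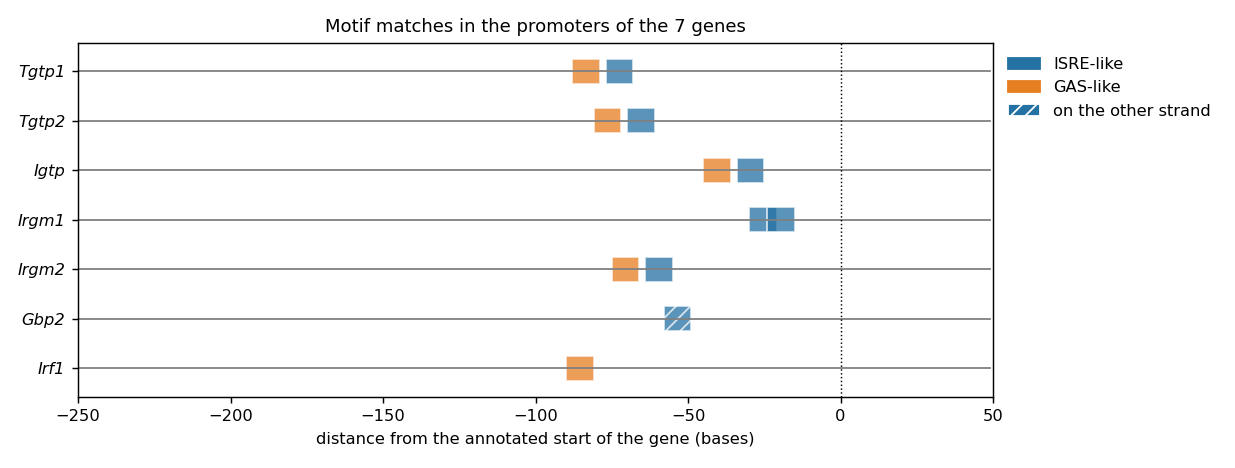
Matches to the GAS-like and ISRE-like motifs in the promoters of the 7 genes, drawn to scale by their distance in bases from the annotated start, with matches of both *Irf1* promoters on one line. *Tgtp1*, *Tgtp2*, *Igtp* and *Irgm2* hold the GAS-like match and the ISRE-like match side by side, the first of them at position -88 in *Tgtp1*.

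On GRCm38 in the GENCODE annotation, *Irgm1* (ENSMUSG00000046879) lies on the minus strand of chromosome 11 from 48861968 to 48871683. *Tgtp1* (ENSMUSG00000078922) follows on the same strand from 48985327 to 48994172 and *Tgtp2* (ENSMUSG00000078921) from 49057194 to 49064206. *Irf1* (ENSMUSG00000018899) lies on the plus strand from 53770014 to 53778374. *Igtp* (ENSMUSG00000078853), from 58199556 to 58207591 on the plus strand, overlaps *Irgm2* (ENSMUSG00000069874), from 58199618 to 58222782 on the same strand. *Gbp2* (ENSMUSG00000028270) is the only one of the 7 outside chromosome 11, on the plus strand of chromosome 3 from 142620602 to 142638008.

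Reads were assigned to transcripts by Kallisto, which divides reads that fit several transcripts. *Tgtp1* and *Tgtp2* were close to inseparable by sequence. Their longest annotated transcripts, of 2823 and 2810 bases, were identical at 99.33% of aligned positions. Of the 3117 different stretches of 31 bases in the transcripts of *Tgtp1*, 83.2% also occurred in *Tgtp2*, and of the 2908 in *Tgtp2*, 89.2% occurred in *Tgtp1*. *Igtp* shared 326 of its 2045 stretches (15.9%) with *Irgm2*, through an *Irgm2* transcript that begins inside *Igtp*. For *Irgm1*, *Gbp2* and *Irf1* the share found in any other gene was 2.67%, 4.85% and 2.19%. The values of *Tgtp1* and *Tgtp2* are therefore given apart and summed, and the division of reads between *Igtp* and *Irgm2* is uncertain.

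*Tgtp1* encodes an immunity-related GTPase first known from T cells. In WT libraries it had 85 and 33.4 estimated counts at 0 h, 126 and 109 at 24 h, and 188.4 and 282.1 at 48 h. In KO libraries it had 7 and 5 at 0 h, 0 and 0 at 24 h, and 247 and 108.8 at 48 h. The genotypes were thus apart at 0 h and 24 h and overlapped at 48 h.

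Its level in TPM, a share of all transcripts that allows for transcript length and depth, was 1.45 and 0.586 in WT against 0.130 and 0.0941 in KO ESCs. At 24 h *Tgtp1* was at 2.03 and 2.84 TPM in WT and at 0 and 0.00063 TPM in KO spheroids. At 48 h it reached 5.50 and 4.14 TPM in WT and 4.86 and 2.22 TPM in KO spheroids. In mean CPM, counts scaled for depth alone, *Tgtp1* was 9.34-fold lower in KO than in WT ESCs. The 24 h level was lower by a factor of at least 38.7, when 3 counts in each KO library, or 0.0880 CPM on average, stand in for its 0 counts. The order of mean TPM was WT 48 h, KO 48 h, WT 24 h, WT 0 h, KO 0 h and KO 24 h, and the first 3 of these neighbours were not apart in their ranges.

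*Tgtp2*, its near-identical neighbour, was at 0 counts in 10 of the 12 libraries. It had 9.9 counts in 1 WT library at 48 h (replicate 2) and 15.0 counts in 1 KO library at 24 h (replicate 2). In that KO library *Tgtp1* was at 0, so the reads of the pair were all given to *Tgtp2*. Where both groups were at 0, the level of *Tgtp2* was under the 3 counts taken as the limit of a library, 0.0779 to 0.1035 CPM.

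Summed over both genes, the pair had 0 and 15.1 counts in KO and 126 and 109 in WT spheroids at 24 h. The 24 h difference of the sum was 15.5-fold (0.220 CPM in KO and 3.41 CPM in WT), against the bound of 38.7-fold for *Tgtp1* alone. At 48 h the sum was 1.41-fold lower in KO, with 5.50 and 5.09 TPM in WT and 4.86 and 2.22 TPM in KO. In the edgeR fit of Tgtp1 and Tgtp2 summed, KO over WT on the log2 scale was -3.20 at 0 h (standard error, SE, 0.91), -3.93 at 24 h (0.91) and -0.49 at 48 h (0.76). In TPM the KO libraries were below the WT libraries at all 3 times in the sum, while in CPM they overlapped at 48 h, with 3.78 and 6.56 CPM in KO and 6.38 and 8.20 CPM in WT. These are the values on which *Tgtp1* was chosen, and no test is given for them.

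**Figure D2:**
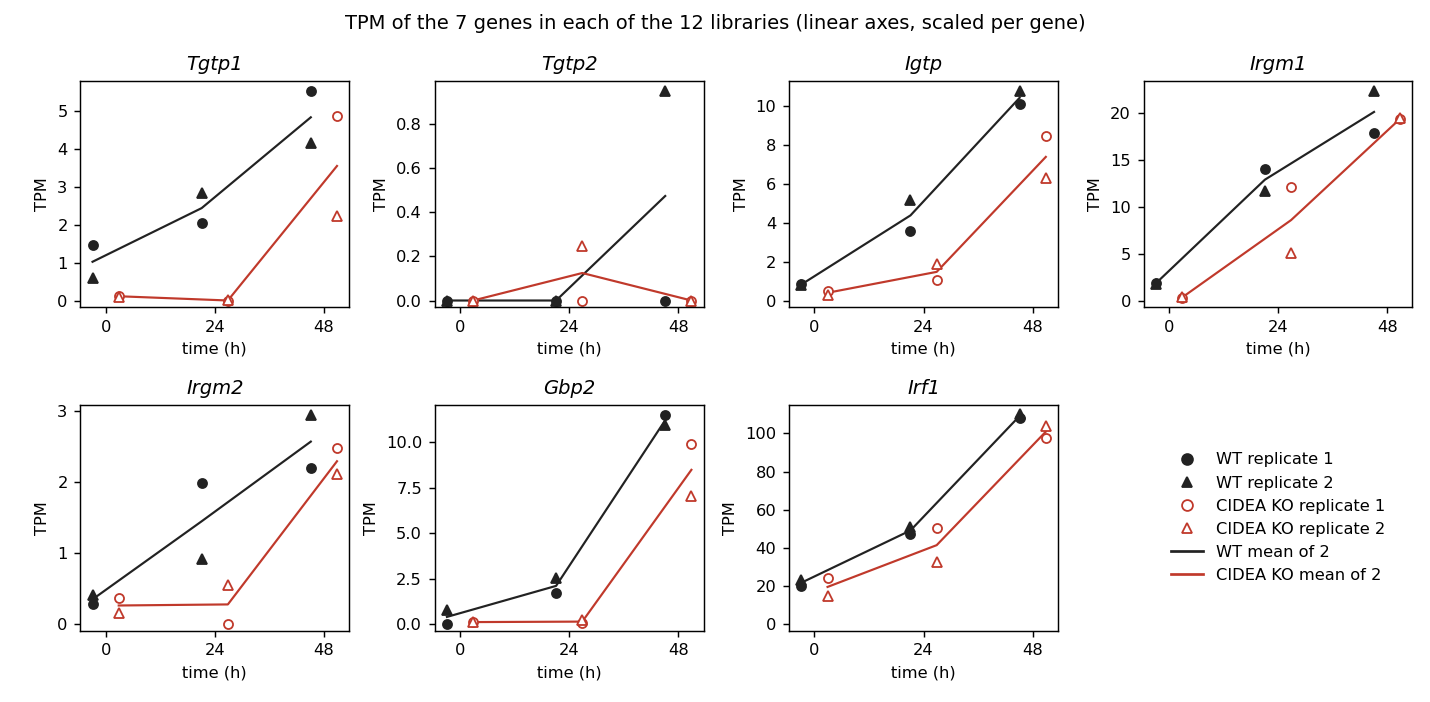
TPM of the 7 genes (vertical axes, linear, scaled per gene) at 0, 24 and 48 h (horizontal axes), with 1 symbol per library and a line through the mean of the 2 libraries for WT (filled, black) and CIDEA KO (open, red). *Tgtp1* lies at 0.13 TPM or below in the 4 KO libraries at 0 h and 24 h and between 2.22 and 5.50 TPM in the 4 libraries of both genotypes at 48 h.

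Before the other genes are compared, the libraries themselves need a few words. The estimated counts summed to 29.05 to 38.5 M per library. *Cidea* had 20 to 117 counts in WT libraries and 0 in all 6 KO libraries. Of 8 pluripotency markers, all were at 1 TPM or more in every group. From 0 h to 48 h 6 of them fell and 1 rose in each genotype, where 23.6% of all genes were called in WT and 25.0% in KO cells. The marker *Zfp42* was higher in KO cells at 0 h and 24 h. Markers of macrophages and leukocytes summed to 26.6 to 59.1 TPM, nearly all from *Cd68*, with 26.5 to 58.9 TPM, while the macrophage genes *Lyz2* and *Adgre1* had 0 counts in all groups. Fibroblast markers summed to 7.84 to 25.5 TPM, with 7.84 to 15.1 TPM in KO and 15.9 to 25.5 TPM in WT ESCs. At 24 h the ranges overlapped, with 16.4 to 23.2 TPM in KO and 19.9 to 20.3 TPM in WT spheroids. At 48 h they were 12.3 to 17.2 TPM in KO and 19.7 to 25.4 TPM in WT spheroids. Most of this sum was *Thy1*, which was lower in KO cells over all times (-0.79, adjusted p = 0.0023). The primitive endoderm markers summed to 25.1 to 32.0 TPM at 0 h and to 9.90 to 11.7 TPM at 48 h. The part of such cells in the results was not tested. One library stood apart, KO at 24 h replicate 1, which detected 15476 genes at equal depth where the other 11 detected 17627 to 19689. Its values and the results without it are given below.

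Whether the genes changed on the way from ESCs to spheroids was tested within each genotype. Of the 5 members not chosen on their level in KO cells, 4 rose from 0 h to 48 h in WT cells, where 23.6% of all genes tested were called in either direction. In KO cells the same 4 genes rose, where 25.0% of all genes were called. They were *Irf1*, *Gbp2*, *Irgm1* and *Igtp*. *Tgtp1* was chosen on its level in some of these libraries, so its change with time is given as a description.

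*Irf1*, the transcription factor of the group, was the most abundant. It was at 20.1 and 23.4 TPM in WT ESCs, 47.2 and 51.1 TPM at 24 h, and 108 and 110 TPM at 48 h. In KO cells *Irf1* was at 24.4 and 14.7 TPM, 50.3 and 32.6 TPM, and 97.8 and 104 TPM at the same times. Each later time lay above the earlier one in every library of its genotype. *Irf1* rose by 2.18 ± 0.15 on the log2 scale in WT (estimate ± SE from edgeR's quasi-likelihood test, adjusted p = 1.7e-08), and the rise in KO cells was 2.54 ± 0.16 (adjusted p = 2.3e-09). Its mean CPM was 2.17-fold higher at 24 h than at 0 h in WT cells and 2.16-fold higher in KO cells, and from 24 h to 48 h the step was 2.08-fold and 2.69-fold.

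*Gbp2*, a guanylate-binding protein, went from near the limit of detection to a moderate level. It had 2 and 31 counts in WT ESCs, 93 and 108 at 24 h, and 561 and 657.6 at 48 h. KO cells had 6 and 5 counts at 0 h, 1 and 12 at 24 h, and 640 and 345 at 48 h. In KO cells, *Gbp2* was thus at 12 counts or fewer in both 24 h libraries, as in ESCs, and the step to 48 h was 75.8-fold in mean CPM, where it was 6.46-fold in WT. *Gbp2* rose from 0 h to 48 h by 5.08 ± 0.90 in WT (adjusted p = 0.0029), and the rise in KO cells was 6.21 ± 1.01 (adjusted p = 0.0015).

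*Irgm1* encodes a regulatory member of the immunity-related GTPases. It had 84.1 and 74.1 counts in WT ESCs and only 11 and 16 in KO ESCs. At 24 h it had 674.8 and 587.1 counts in WT, 557.3 in the KO library that stood apart and 241.1 in the other. At 48 h *Irgm1* had 751.2 and 1158.6 counts in WT and 1084.7 and 816.4 in KO spheroids. Its rise from 0 h to 48 h was 3.46 ± 0.32 on the log2 scale in WT (adjusted p = 3.9e-07) and 5.91 ± 0.39 in KO cells (adjusted p = 4.7e-09). In mean CPM this was 11.04-fold in WT and 60.6-fold in KO cells.

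*Igtp*, also known as *Irgm3*, is a second regulatory GTPase. Its level was 0.853 and 0.790 TPM in WT ESCs, 3.57 and 5.16 TPM at 24 h, and 10.1 and 10.7 TPM at 48 h. In KO cells *Igtp* was at 0.495 and 0.297 TPM, 1.04 and 1.90 TPM, and 8.46 and 6.27 TPM. KO libraries lay below WT libraries at each time, and each time lay above the one before within a genotype. *Igtp* rose by 3.84 ± 0.41 in WT (adjusted p = 6.6e-07), and the rise in KO cells was 4.37 ± 0.43 (adjusted p = 2.0e-07).

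*Irgm2*, the third regulatory GTPase, had the lowest mean TPM over the 12 libraries apart from *Tgtp2*. It was at 0.290 and 0.410 TPM in WT ESCs, 1.98 and 0.916 TPM at 24 h, and 2.20 and 2.94 TPM at 48 h, and in KO cells at 0.375 and 0.152, 0 and 0.557, and 2.48 and 2.11 TPM. All 48 h libraries lay above all ESC libraries. The log2 fold change was 2.86 ± 1.14 in WT (adjusted p = 0.10) and 3.17 ± 1.16 in KO cells (adjusted p = 0.074), and neither was called. Without either KO library at 24 h it was called in both genotypes (*Irgm2*, adjusted p of 5.1e-05 and 7.1e-05 in WT without replicate 1 and replicate 2, and 1.7e-05 and 2.3e-05 in KO cells).

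For *Tgtp1*, the change from 0 h to 48 h was 1.87 ± 0.56 in WT and 4.60 ± 0.67 in KO cells, where the low counts at 0 h are among the values it was chosen on. With the reads of *Tgtp2* added, the change was 1.90 in WT and 4.60 in KO cells. In WT the change of *Tgtp1* was 1.36 without WT 0 h replicate 2.

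**Figure D3:**
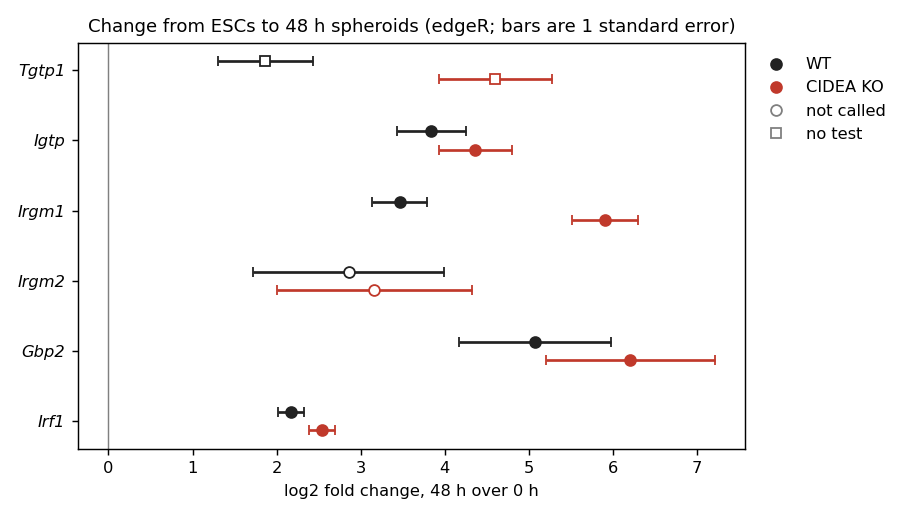
Log2 fold change from 0 h to 48 h (horizontal axis) of 6 genes in WT (black) and CIDEA KO (red), with bars of 1 standard error, open circles where the adjusted p was not under 0.05 and open squares for *Tgtp1*, which was chosen on some of these libraries and has no test. All 12 values lie above 0, from 1.87 for *Tgtp1* in WT to 6.21 for *Gbp2* in KO cells, and the 2 of *Irgm2* were not called.

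Whether the genes differed between the genotypes was tested for the 5 members that were not chosen on this difference. They were listed with earlier results of these data known, so their independence of those results is not established. Over all times, *Irgm1* and *Igtp* were lower in KO cells, 2 of 5, where 5.03% of all genes were called in either direction. The difference of *Irgm1* was -1.05 on the log2 scale (SE 0.19, adjusted p = 0.0033) and that of *Igtp* -1.03 (SE 0.22, adjusted p = 0.0085). *Irf1* had -0.28 (adjusted p = 0.079), *Gbp2* -1.93 (adjusted p = 0.084) and *Irgm2* -1.01 (adjusted p = 0.49). The fit for *Tgtp1* over all times gave -4.48 as a description, and -2.54 with *Tgtp2* added.

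Whether *Irf1*, *Gbp2* and *Irgm2* were called over all times depended on single libraries. The share of all genes called without each library is not given here. Without KO 24 h replicate 1, *Irf1* was called as well (-0.39, adjusted p = 0.00011). Without KO 24 h replicate 2, *Irf1* (-0.19, adjusted p = 0.041), *Gbp2* (-2.78, adjusted p = 0.021) and *Irgm2* (-3.45, adjusted p = 4.8e-05) were called, which makes 5 of 5. *Gbp2* was also called without WT 0 h replicate 1 (-2.23, adjusted p = 0.00029), but without WT 0 h replicate 2 it had -0.93 (adjusted p = 0.42). *Irgm2* had -0.67 without KO 24 h replicate 1 (adjusted p = 0.24). *Irgm1* and *Igtp* were called with each of the 12 libraries left out in turn, but neither was called with limma on log2(TPM + 1), where *Irgm1* had -0.59 (adjusted p = 0.18) and *Igtp* -0.66 (adjusted p = 0.099).

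In ESCs at 0 h, only *Irgm1* was called among the 5, where 1.26% of all genes were called. Its level was 1.92 and 1.73 TPM in WT and 0.264 and 0.360 TPM in KO ESCs, a difference of -2.47 ± 0.41 (adjusted p = 0.0038) or 5.57-fold in mean CPM. *Igtp* had -1.003 (adjusted p = 0.42), with KO libraries again below WT libraries. *Irf1* had -0.39 (adjusted p = 0.36), with ranges that overlapped in TPM. In CPM its KO libraries were lower, at 19.8 and 24.5 against 28.7 and 29.5 in WT. *Gbp2* and *Irgm2*, at 2 to 31 counts in these 4 libraries, had -1.50 (adjusted p = 0.75) and -0.45 (adjusted p = 0.99). Both turned sign when 1 library was left out, *Gbp2* to 1.49 without WT 0 h replicate 2 and *Irgm2* to 0.064 without KO 0 h replicate 2. The call of *Irgm1* was lost without WT 0 h replicate 1 (-2.38, adjusted p = 0.079) or KO 0 h replicate 1 (-2.21, adjusted p = 0.099), and with only these groups in the fit (adjusted p = 0.099). *Irf1* was called at 0 h without KO 24 h replicate 1 (adjusted p = 0.041) or replicate 2 (adjusted p = 0.035).

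At 24 h, *Igtp* was the 1 gene called of the 5, where 1.46% of all genes were called. Its difference was -1.62 (SE 0.37, adjusted p = 0.031), or 3.07-fold in mean CPM. *Gbp2* had 1 and 12 counts in KO and 93 and 108 in WT spheroids, 15.2-fold in mean CPM and -3.90 on the log2 scale (SE 0.96), yet it did not pass the test (adjusted p = 0.12). *Irgm2* had 0 and 42.1 counts in KO and 153.6 and 75 in WT spheroids (-2.43, standard error 1.13, adjusted p = 0.42). *Irgm1* (-0.64, adjusted p = 0.36) and *Irf1* (-0.40, adjusted p = 0.24) overlapped between the genotypes in TPM. In CPM both KO libraries lay below both WT libraries, at 7.08 and 16.3 against 16.5 and 20.1 for *Irgm1*. For *Irf1* they were at 37.9 and 57.6 CPM against 61.9 and 64.5 CPM.

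The size of the difference was not the same in the 2 KO libraries at 24 h. In replicate 1, which stood apart, *Irf1* was at 50.3 TPM and *Irgm1* at 12.1 TPM, inside the range of WT in TPM. In CPM this library lay below both WT libraries for both genes, at 57.6 for *Irf1* and 16.3 for *Irgm1*. It had 1 count of *Gbp2* and 0 of *Irgm2*. In replicate 2, *Irf1* was at 32.6 TPM and *Irgm1* at 5.10 TPM, both below the WT libraries. Without replicate 1, *Irgm1* (-1.37, adjusted p = 0.0031) and *Irf1* (-0.74, adjusted p = 0.0012) were called and *Igtp* was not (-1.30, adjusted p = 0.14). Without replicate 2, *Igtp* (-2.02, adjusted p = 0.0020), *Gbp2* (-6.45, adjusted p = 0.022) and *Irgm2* (adjusted p = 1.7e-05) were called, and the last of these then rests on 1 KO library at 0 counts. The lone library left in the group is in both cases assumed to vary like the other groups. The call of *Igtp* was lost as well without either WT library at 24 h (adjusted p of 0.091 and 0.23), without either WT library at 48 h (0.072 and 0.075) and without either KO library at 48 h (0.062 and 0.052). *Gbp2* was called without either WT library at 0 h (adjusted p of 0.00082 and 0.00085).

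At 48 h, 0 of the 5 members were called by edgeR, by DESeq2 or by limma, and 0 had an unadjusted p under 0.05, where 0.671% of all genes were called and 1349 had such a p. *Irgm1* had -0.02 (SE 0.28), *Irf1* -0.03 (0.14), *Irgm2* -0.14 (1.04), *Gbp2* -0.37 (0.72) and *Igtp* -0.48 (0.36). The TPM of *Igtp*, *Gbp2* and *Irf1* was lower in both KO libraries than in both WT libraries, and so was their CPM. For *Irf1* this was 97.8 and 104 TPM against 108 and 110 TPM, and 126.4 and 130.6 CPM against 131.0 and 131.9 CPM. Their estimated counts, which are not scaled for depth, overlapped.

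**Figure D4:**
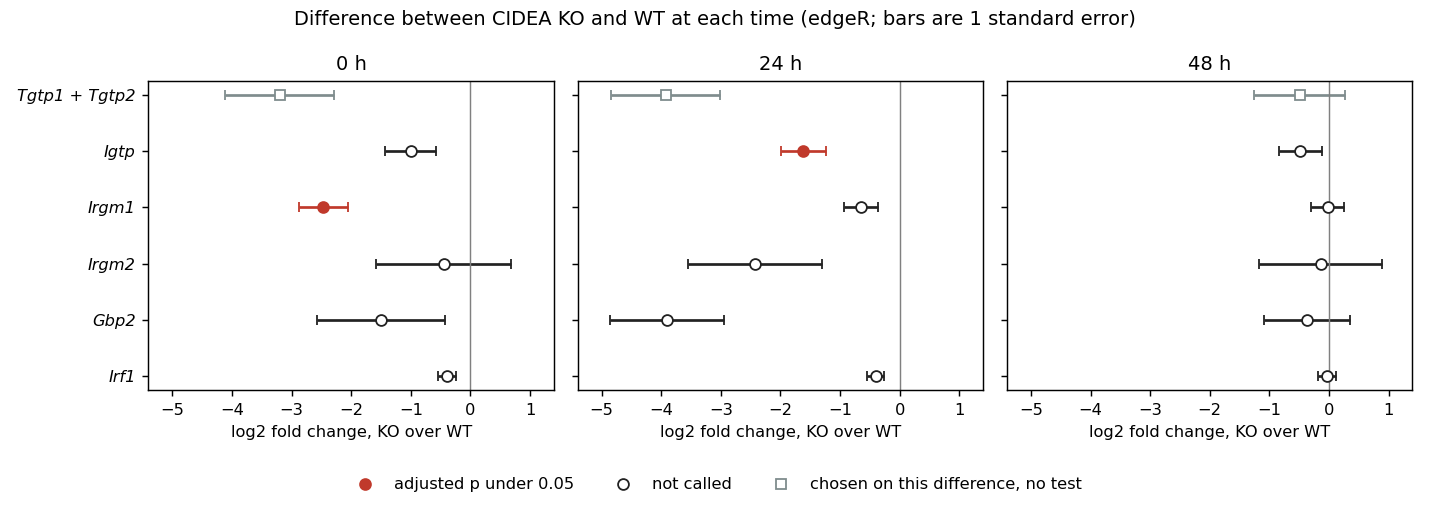
Log2 fold change of CIDEA KO over WT (horizontal axes) at 0, 24 and 48 h for the 5 tested genes and for the sum of *Tgtp1* and *Tgtp2*, with bars of 1 standard error. Filled symbols mark the 2 called values, *Irgm1* at 0 h (-2.47) and *Igtp* at 24 h (-1.62), and the grey squares mark the sum, which was chosen on this difference and has no test.

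Interaction terms tested whether the difference between the genotypes itself changed with time. Between 0 h and 24 h, 0 of the 5 members not chosen on this difference were called and 1, *Irgm1*, had an unadjusted p under 0.05, where 0.0115% of all genes were called by edgeR and 1029 had such a p. Between 0 h and 48 h, 0 of the 5 were called and *Irgm1* alone had an unadjusted p under 0.05, where 0.0402% of all genes were called and 1003 had such a p. The largest of the second kind among them was that of *Irgm1*, whose rise was larger in KO cells by 2.45 on the log2 scale (SE 0.50, unadjusted p = 0.00016, adjusted p = 0.14). This term of *Irgm1* was called without KO 24 h replicate 1 (adjusted p = 0.00072) or replicate 2 (0.00062), and with only the 4 groups concerned in the fit (adjusted p = 0.0046). Between 0 h and 24 h, *Irgm1* (2.31, adjusted p = 0.00027) and *Irgm2* (adjusted p = 0.00036) were called without KO 24 h replicate 2.

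Across the 12 libraries, the log2 CPM of the members moved together to different degrees, given here as a description over libraries that share groups and times. Pearson's r was 0.96 for *Irf1* with *Igtp*, 0.92 for *Irf1* with *Irgm1*, and 0.86 for *Irf1* with *Gbp2*. It was 0.64 for *Irf1* with *Tgtp1* and 0.51 for *Irgm1* with *Tgtp1*, while *Irgm2* had 0.81 with *Tgtp1*. By the same measure, genes at or above 1 in average log2 CPM were ranked by likeness to *Tgtp1*, with the members left out. The 5 most like it were *Lgals9* (r = 0.96), *Igfbp2* (0.95), *Adgrg1* (0.94), *Slc43a3* (0.94) and *Tspoap1* (0.93).

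*Lgals9*, the gene of the carbohydrate-binding protein galectin-9, was at 6.32 and 4.89, 5.98 and 8.17, and 13.4 and 11.7 TPM in WT libraries at 0, 24 and 48 h. In KO libraries *Lgals9* was at 2.29 and 2.04, 1.59 and 2.08, and 7.47 and 7.70 TPM. *Lgals9* was picked for its likeness to *Tgtp1*, itself picked for its low level in KO cells, so its lower KO levels follow from that choice.

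The upstream pathway was measured from lists of known genes. Of 21 interferon genes in the tables, 18 had 0 counts in all 12 libraries, among them *Ifng* and *Ifnb1*. The other 3, *Ifna4*, *Ifnab* and *Ifnz*, had 4, 2 and 3.5 counts in all.

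Of 10 receptor and JAK-STAT genes, all were tested and 0 differed between the genotypes by edgeR over all times or at any time. Of all genes tested, 5.03% were called over all times and 1.26%, 1.46% and 0.671% at 0, 24 and 48 h. For 10 genes, 0 called is close to these shares. At 24 h, 2 of the 10 had an unadjusted p under 0.05, where 2177 of all 17424 genes did. In the other genotype comparisons 0 of the 10 had one. The highest of the 10 were *Ifnar1*, a receptor chain for type I interferon, at 12.6 to 26.2 TPM, and the kinases *Jak1* at 11.1 to 23.8 TPM and *Tyk2* at 8.77 to 16.0 TPM. From 0 h to 48 h, 1 rose and 3 fell in each genotype, 4 of 10 where 23.6% of all genes were called in WT and 25.0% in KO cells. *Ifngr1*, the ligand-binding chain of the receptor for type II interferon, rose by 1.30 in WT (adjusted p = 0.045) and by 1.38 in KO cells (adjusted p = 0.034). *Irf9*, which binds the ISRE element, fell by 0.81 in WT (adjusted p = 0.023) and fell by 1.22 in KO cells (adjusted p = 0.0012). *Jak1* had changes of -0.48 and -0.81, and *Tyk2* of -0.47 and -0.60. The 10 genes had a median change of -0.43 in WT and -0.33 in KO cells, with 0.02 and 0.01 over all genes.

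Of the 8 other genes of the IRF family, 0 differed between the genotypes by edgeR, where 0.671% to 5.03% of all genes were called. At 24 h, 1 of the 8 had an unadjusted p under 0.05, where 2177 of all 17424 genes did. In the other genotype comparisons 0 of the 8 had one. *Irf9* was the only one of the 8 that changed from 0 h to 48 h, where 23.6% of all genes were called in WT and 25.0% in KO cells. *Irf3*, the most abundant of them, had 21.9 to 48.7 TPM with its highest value in KO 24 h replicate 1. Of 6 negative regulators, 5 were tested. *Socs3*, which blocks JAK activity downstream of LIF and other cytokines, had 85.4 and 91.5 TPM in WT and 95.4 and 130 TPM in KO ESCs and 0.778 to 2.34 TPM at 48 h. It fell by 5.37 in WT (adjusted p = 1.5e-12) and fell by 6.74 in KO cells (adjusted p = 2.1e-13), and at 48 h it was lower in KO cells, with a difference of -1.06 (adjusted p = 0.044). *Socs1*, which limits interferon signals, rose by 1.33 in WT (adjusted p = 0.031) and had 1.12 in KO cells (adjusted p = 0.067).

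Of 17 other GTPase genes, 11 passed the filter. The list holds *Mx1*, *Mx2* and *Gvin1* beside immunity-related GTPases and guanylate-binding proteins. Of the 11, 0 differed between the genotypes by edgeR, where 0.671% to 5.03% of all genes were called. At an unadjusted p under 0.05 were 1, 4 and 0 of them at 0, 24 and 48 h, and 2 over all times. Of all 17424 genes, 1745, 2177 and 1349 had such a p at these times, and 2932 over all times. The median difference of the 11 was -1.14 at 24 h, where that of all genes was -0.02, and -0.40 over all times. Several lay near the floor, with mean TPM of 0.347, 0.258, 0.484, 0.146 and 0.137 for *Gbp5*, *Gbp6*, *Gbp7*, *Gbp8* and *Mx2*. In KO 24 h replicate 1, the library that stood apart, *Gbp3*, *Gbp6*, *Gbp8* and *Mx1* were at 0 TPM. *Gbp4* was at 12.8 TPM in that library, above both WT libraries at 24 h. From 0 h to 48 h, 5 of the 11 rose in each genotype and 0 fell, against 23.6% and 25.0% of all genes called in WT and KO cells. The median change was 2.30 in WT and 2.63 in KO cells. *Gbp4* was the highest, with 4.51 and 2.33 TPM in WT ESCs and 23.5 and 19.5 TPM in WT spheroids at 48 h. It rose by 2.30 in WT (adjusted p = 3.3e-07) and by 2.63 in KO cells (adjusted p = 6.3e-08). *Gbp2b* was at 0 TPM in both WT ESC libraries and at 8.86 and 7.26 TPM at 48 h, and in KO cells at 0.0929 and 0 TPM and at 6.53 and 5.25 TPM. *Gbp3*, *Gbp7* and *Gbp9* were the others that rose. *Gbp3* at 24 h had 3.38 and 2.86 TPM in WT and 0 and 0.285 TPM in KO spheroids, a difference of -3.50 that did not pass the test (adjusted p = 0.23). *Ifi47*, another immunity-related GTPase, was listed above 0 only in WT spheroids at 48 h, with 0.592 and 0.338 TPM, and was not tested.

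**Figure D5:**
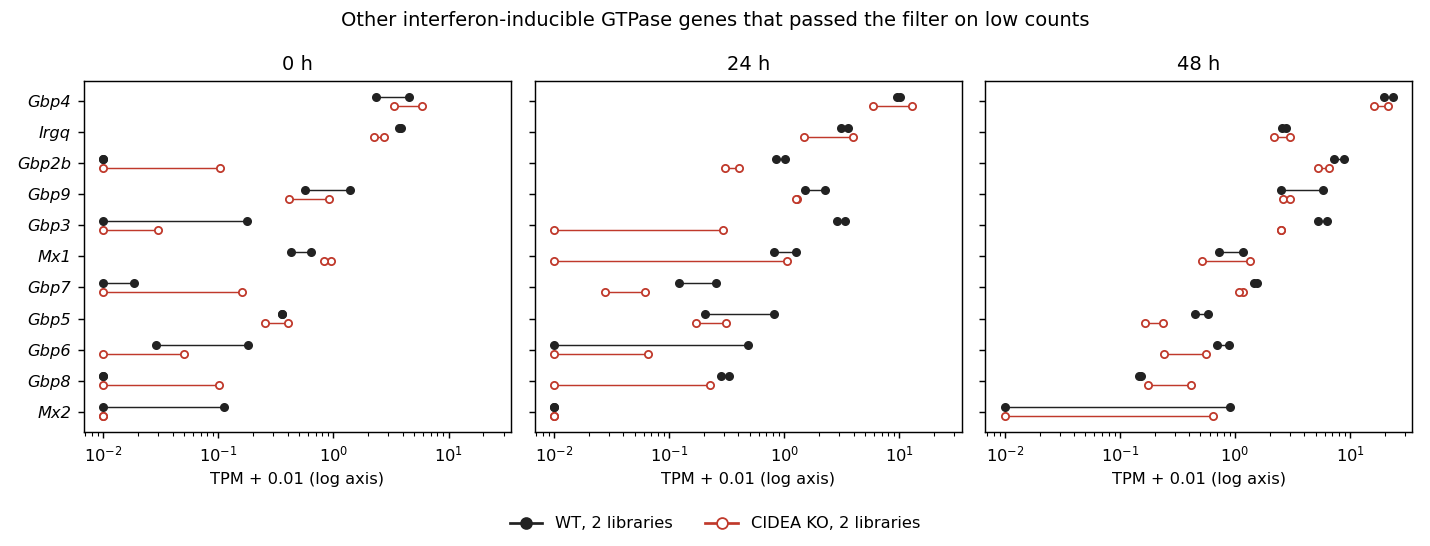
TPM + 0.01 (horizontal axes, log scale) of the 11 other GTPase genes that passed the filter at 0, 24 and 48 h, with 2 libraries joined by a line for WT (filled, black) and CIDEA KO (open, red). *Gbp4*, *Gbp2b*, *Gbp3*, *Gbp7* and *Gbp9* move to the right from 0 h to 48 h in both genotypes, and *Irgq* stays between 1.46 and 3.92 TPM.

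Interferon-stimulated genes outside this list of GTPases did not move as 1 group. Of 26 listed, 25 were tested. From 0 h to 48 h, 7 rose and 6 fell in WT, and 4 rose and 6 fell in KO cells, against 23.6% and 25.0% of all genes called in either direction. The medians were 0.71 and 0.20, where those of all genes were 0.02 and 0.01. *Xaf1* fell by 2.01 in WT (adjusted p = 1.4e-07) and fell by 2.65 in KO cells (adjusted p = 3.1e-09). *Ddx58*, the RNA sensor RIG-I, had changes of -1.004 and -1.36, and the membrane proteins *Ifitm1* and *Ifitm2* also fell in both. *Bst2* rose by 0.86 in WT (adjusted p = 0.0012) and by 0.98 in KO cells (adjusted p = 0.00029). Over all times, 1 of the 25 was higher in KO cells and 4 were lower, where 5.03% of all genes were called. The lower ones were *Oas1a*, an activator of RNA decay (-1.18, adjusted p = 0.0040), *Ifi35* (-0.96, adjusted p = 0.0045), *Ifitm1* (-0.28, adjusted p = 0.0078) and *Parp14* (-0.47, adjusted p = 0.049), and *Ifitm3* was higher (0.33, adjusted p = 0.042). The median of the 25 was -0.29, and that of all genes 0.00. At 24 h only *Ifitm1* was called (-0.56, adjusted p = 0.0071), where 1.46% of all genes were called. At 0 h and 48 h 0 of the 25 were called by edgeR, where 1.26% and 0.671% of all genes were. Of the 25, 3 and 7 had an unadjusted p under 0.05 at these times, where 1745 and 1349 of all 17424 genes did.

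Genes of antigen processing, many of which are targets of IRF1, changed in part with time. Of 10 tested, 5 rose and 1 fell in WT, where 23.6% of all genes were called, and 4 rose and 1 fell in KO cells, where 25.0% were. Their medians were 1.89 and 1.76. *Tapbp*, the chaperone tapasin, rose by 1.67 in both (adjusted p of 1.0e-07 in WT and 9.1e-08 in KO cells), and *Psmb10*, an immunoproteasome subunit, rose by 2.11 and 1.86. *B2m*, the light chain of MHC class I, fell by 1.29 in WT (adjusted p = 0.00016) and fell by 1.53 in KO cells (adjusted p = 2.4e-05). By genotype, 2 of the 10 differed over all times, where 5.03% of all genes did, and both were higher in KO cells, while the median of the 10 was -0.10. *H2-D1* had 28.8 and 31.3 TPM in WT and 44.8 and 48.8 TPM in KO ESCs and differed by 0.49 over all times (adjusted p = 0.00094), and *H2-K1* differed by 0.41 (adjusted p = 0.0014). Their direction was opposite to that of *Irgm1* and *Igtp*.

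Since 6 of the 7 genes lie on chromosome 11, their neighbours were described too. Of the 166 other genes that begin within 1 Mb of the start of *Tgtp1*, *Igtp* or *Irf1*, 80 were tested. Over all times 2 were higher and 2 lower in KO cells, a share near the 5.03% of all genes called. They were *Gfpt2* (-0.33, adjusted p = 0.0023), *Aff4* (0.21, adjusted p = 0.0056), *Acsl6* (0.51, adjusted p = 0.022) and *Sap30l* (-0.35, adjusted p = 0.035). Their median difference was 0.04, where that of all genes was 0.00, and it was 0.01, 0.05 and -0.11 at 0, 24 and 48 h.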

How the data were processed

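Illumina mRNA libraries from 12 samples, 2 in each of 6 groups, were used. Per the labels and the study's methods, the authors trimmed paired reads with Trimmomatic 0.33 and ran Kallisto 0.43.1; the transcript set and the strand setting were not given in the sources used here. The deposited tables hold estimated counts per transcript, and TPM in which the authors' tool scaled them for effective length and depth. The deposited length columns were used only for offsets.

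Transcripts were matched by identifier to GENCODE M21 (GRCm38). Of the transcripts 98.5% matched; the others held 0.659% to 0.709% of the counts and were left out. Estimated counts were summed per gene, rounded, and tested with the robust quasi-likelihood method of edgeR 4.0.16 under R 4.3.3, using TMM scaling, filterByExpr and a separate mean for each group, with all 12 libraries in the fit. P-values were adjusted by Benjamini-Hochberg over all 17424 genes, with a threshold of 0.05. The spread between replicates, as the biological coefficient of variation, was 0.311. Replicates are described as independent samples, and their counts differed beyond sampling noise (chi-square of 11.0 to 32.5 per degree of freedom). The floor of 3 counts per library reflects counting error alone, and the sources name no molecular identifiers. A gene list is given by its counts and its median beside those of all genes. The members and lists were chosen with earlier results of these data known. Listed genes named in the text are those called in the comparison (at most 4, by lowest adjusted p) or else the 3 with the highest mean TPM. *Gbp3* at 24 h, *Ifi47*, *Irf3*'s highest library, *Socs1*, *Bst2*, *Irgq*, *Cd68*, *Thy1* and *Zfp42* are exceptions picked with their values in view. Alternatives were DESeq2 1.42.0, its size factors, other filters, fewer groups, average transcript lengths as offsets, limma 3.58.1 on log2(TPM + 1) or log2(TPM + 0.1), a replicate block, *Tgtp1* and *Tgtp2* summed, and each library left out.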

Additional observations from a re-analysis of the deposited data

How the results depend on the processing

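Counts of called genes are over the 5 members not chosen on the genotype difference for genotype, and over 6 for time and interactions, where *Tgtp1*, whose values are not independent of its choice, is included. With the settings of the report, that count is 5 of 6 with time in each genotype and 0 for the interactions. Without *Tgtp1* it is 4 of 5 with time in each genotype. The report gives no test for *Tgtp1*, so its part in these counts is a description. Under the alternatives, the counts with time and for the interactions are given only with *Tgtp1* included. They are therefore not independent of its choice. The share of all genes called under each alternative is not given, so the counts that follow cannot be read against it. With DESeq2, 4 were called over all times, 2 at 24 h and 6 with time in each genotype. It gave no value for the interaction at 48 h. With no filter on low counts, 4 were called over all times, 2 at 0 h, 4 at 24 h, and 2 and 1 for the interactions at 24 h and 48 h. A minimum of 10 counts in every library left 3 genes, of which 3 were called over all times and 3 with time in each genotype. With only the groups compared, 0 were called at 0 h and 24 h and 1 for the interaction at 48 h. Average transcript lengths as offsets in edgeR gave 1 over all times and 0 at 24 h. Over all times *Irgm1* kept its call in that fit (-1.07, adjusted p = 0.021) and *Igtp* lost it (-1.05, adjusted p = 0.06). Limma on log2(TPM + 1) and log2(TPM + 0.1) gave 0 over all times, at 0 h and at 24 h. With *Tgtp1* and *Tgtp2* summed and KO 24 h replicate 1 left out, an alternative chosen after seeing the data, 2 were called at 0 h, 2 at 24 h, 3 over all times and 1 for the interaction at 48 h. Leaving out each library in turn gave 2 to 5 over all times, 0 to 2 at 0 h, 0 to 3 at 24 h, 0 at 48 h, 4 to 6 with time in WT, 5 to 6 in KO cells, and 0 to 3 and 0 to 1 for the interactions.

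Samples with the same replicate number did not deviate together (correlations of -0.0486 to 0.0508), so the numbers only name samples. The replicate block gave 3 over all times, adding *Irf1* (-0.28, adjusted p = 0.037), and changed no other count.

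Signs turned only in values that were not called. Without 1 library, *Gbp2* at 0 h ranged from -2.41 to 1.49, *Irgm2* at 0 h from -1.23 to 0.064 and at 48 h from -0.35 to 0.10, and *Irgm1* at 48 h from -0.19 to 0.16. For the interaction at 24 h, *Irf1* was 0.0018 with DESeq2 and with its size factors and -0.35 to 0.27 without 1 library, and *Tgtp1* was 0.25 when summed without KO 24 h replicate 1. For the interaction at 48 h, limma on log2(TPM + 1) gave -0.071 for *Igtp*, -0.011 for *Irgm2* and -0.10 for *Gbp2*, and without 1 library *Gbp2* ranged from -1.87 to 2.03 and *Irgm2* from -0.21 to 1.08. Of the alternatives for single genes, 960 kept direction and call, 52 gained a call, 26 lost one, 16 turned sign and 13 moved beyond the replicate spread. The causes were not tested. Counts of the further lists come from the fit of all 12 libraries alone. With 2 libraries a group, and 0 to 31 counts in ESCs for *Gbp2*, *Irgm2* and *Tgtp2*, differences at 0 h were hardly measurable for these genes.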
